A study of Mus musculus with 24 samples.

Results

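The let-7 and miR-98 family was followed here through 10 mature miRNAs, taken by name from the count tables: mmu-let-7a-5p, mmu-let-7b-5p, mmu-let-7c-5p, mmu-let-7d-5p, mmu-let-7e-5p, mmu-let-7f-5p, mmu-let-7g-5p, mmu-let-7i-5p and mmu-miR-98-5p, which are cut from the 5′ side of their hairpins, and mmu-let-7d-3p, cut from the 3′ side of the let-7d hairpin. The prefix mmu, for mouse, is left out below. All 10 were listed in each of the 3 tables, among 1657 names at day 14, 1707 at day 90 and 1767 at day 180, or 1950 names over the tables. They were small RNA libraries of lung from C57BL/6 mice, 6 to 8 weeks old when assigned to groups. One group at each day had received X-rays to the whole thorax, 15 Gy in total with the rest of the body spared, and the other was the control, for which no sham procedure is described. Each of the 6 groups (control and irradiated at days 14, 90 and 180) had 4 libraries, 24 in all, and whether a library came from 1 mouse is not given in the labels, so that a p-value measures only the spread between libraries.

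Let-7 was found as a regulator of developmental timing in the nematode, and its family is abundant in differentiated mammalian tissues. The miRNAs guide Argonaute proteins to messages that pair with the seed near their 5′ end, among them those of RAS, HMGA2, MYC and LIN28 genes. LIN28 proteins bind the loop of many let-7 precursors, often at a GGAG motif, and block their maturation. In lung the family is best known for repressing RAS in tumours, where low let-7 has been linked to poor outcome.

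The 9 5p members carry the same seed, and the differences between them lie outside it, which is why their counts depend on how reads that differ by few bases were assigned. The sequences below are from RefSeq on GRCm38.p6 and are written 5′ to 3′ with the seed (bases 2 to 8) in capitals; all 10 members were found there.
let-7a-5p: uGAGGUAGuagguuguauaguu
let-7b-5p: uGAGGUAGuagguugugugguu
let-7c-5p: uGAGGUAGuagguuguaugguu
let-7d-5p: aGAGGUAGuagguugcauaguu
let-7e-5p: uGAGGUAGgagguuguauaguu
let-7f-5p: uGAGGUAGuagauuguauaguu
let-7g-5p: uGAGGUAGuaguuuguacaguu
let-7i-5p: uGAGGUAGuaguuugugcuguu
miR-98-5p: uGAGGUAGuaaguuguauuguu
let-7d-3p: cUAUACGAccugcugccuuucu
Counted from 1 at the 5′ end and against let-7a-5p, let-7c-5p differed by A19G alone, let-7e-5p by U9G and let-7f-5p by G12A. Let-7b-5p carried A17G and A19G, let-7d-5p U1A and U16C, let-7g-5p G12U and U18C, and miR-98-5p G11A and A19U. Let-7i-5p stood farthest from let-7a-5p, with G12U, A17G, U18C and A19U. Over all pairs of 5p members, 4 pairs differed by 1 base and 10 pairs by 2 bases. All 10 members were 22 bases long, so their levels need no correction for length. Let-7d-3p has another seed, UAUACGA, and is in the family by its hairpin only. Among the 1679 mature mouse names in the RefSeq table, the seed GAGGUAG was carried by 11: the 9 5p members, let-7k, whose largest count in a library was 279, and miR-1961, which the tables did not list.

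The 12 hairpins that could give these members lie on 7 chromosomes of GRCm38 and several share a host transcript in GENCODE M21. Let-7a-1, let-7f-1 and let-7d lie in exons of the long non-coding RNA 6720427I07Rik, with let-7d at chr13:48536012-48536114 on the minus strand. Let-7c-2 and let-7b lie 621 bases apart in exons of Lncppara (chr15:85706603-85706697 and chr15:85707319-85707403, plus strand). Let-7c-1 (chr16:77599657-77599750, plus strand) lies in an intron of Mir99ahg, 656 bases from miR-99a. Let-7e lies in an intron of Spaca6, 367 bases from miR-125a; let-7g in an intron of Wdr82; let-7f-2 and miR-98 in an intron of Huwe1; let-7i in an exon of the pseudogene transcript D630033A02Rik; and let-7a-2 in an intron of the transcript 3110039I08Rik that also holds miR-100 and miR-125b-1. The let-7d hairpin is shown because both of its products are members, with the 5p and 3p arms in capitals:
let-7d hairpin: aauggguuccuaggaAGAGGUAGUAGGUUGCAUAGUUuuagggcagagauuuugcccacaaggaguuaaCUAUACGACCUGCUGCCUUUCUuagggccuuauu
The letters GGAG, searched on the RNA strand, occurred between the arms in 9 of the 12 hairpins and not in those of let-7b, let-7c-2 and miR-98. Anywhere in the hairpin they occurred in 75% of the 12 and in 44.48% of all 1005 RefSeq mouse hairpins. Such a match describes the letters only.

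The tables held 2832205 to 3695133 counts a library. Markers fixed for lung were high in every library: the summed CPM of the epithelial miR-200 family (5 miRNAs) ran from 30447 to 68709, and those of the endothelial miR-126a pair from 35794 to 57787. CPM stands throughout for the deposited counts divided by the library's total, with trimmed mean of M-values (TMM) scaling within a day, and set to a total of 1e6. Control library 2 at day 14 held 4016 CPM of the stratified epithelium markers miR-205-5p and miR-203-3p, against 313 to 891 in the other 23 libraries. Irradiated library 1 at day 180 stood apart as a whole. It had the lowest total, its median Spearman correlation with the other libraries of its day was 0.914 against 0.940 to 0.962, and its 10 most abundant miRNAs took 35.2% of its counts against 27.0% to 29.4% in the other libraries of that day. Results at day 180 are therefore given with and without it. In whole lung, fewer cells of a type and less RNA per cell cannot be told apart.

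In unirradiated lung most 5p members were among the most abundant miRNAs, while let-7e-5p ranked 41 to 43 and miR-98-5p 56 to 60. All 5p members together took 19.4% ± 2.12 of all counts at day 14, 18.4% ± 0.630 at day 90 and 18.5% ± 0.499 at day 180 (SD, n = 4 each). Let-7c-5p was the highest, with 32563 ± 4085 CPM at day 14, 29234 ± 2479 at day 90 and 29134 ± 1866 at day 180 (SD, n = 4), which gave it rank 4 or 5 among all miRNAs. By mean the order in the controls of every day was let-7c-5p, let-7a-5p, let-7f-5p, let-7b-5p, let-7i-5p, let-7g-5p, let-7d-5p, let-7e-5p, miR-98-5p and let-7d-3p.
Most neighbours in that order overlapped between libraries. The 7 highest members formed a near-continuous range, from 32563 ± 4085 CPM for let-7c-5p down to 21981 ± 3272 for let-7d-5p at day 14. The step from let-7d-5p to let-7e-5p, with 6499 ± 1677, 7257 ± 1286 and 7838 ± 938 CPM at the 3 days, was without overlap in every control group. So was the step from let-7e-5p to miR-98-5p, with 3113 ± 473, 3997 ± 511 and 4480 ± 397 CPM (SD, n = 4 each). Let-7d-3p lay below miR-98-5p by mean, and without overlap at day 180 only. The tables give sequenced reads, and how well each small RNA takes up adaptors was not corrected.

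**Figure D1:**
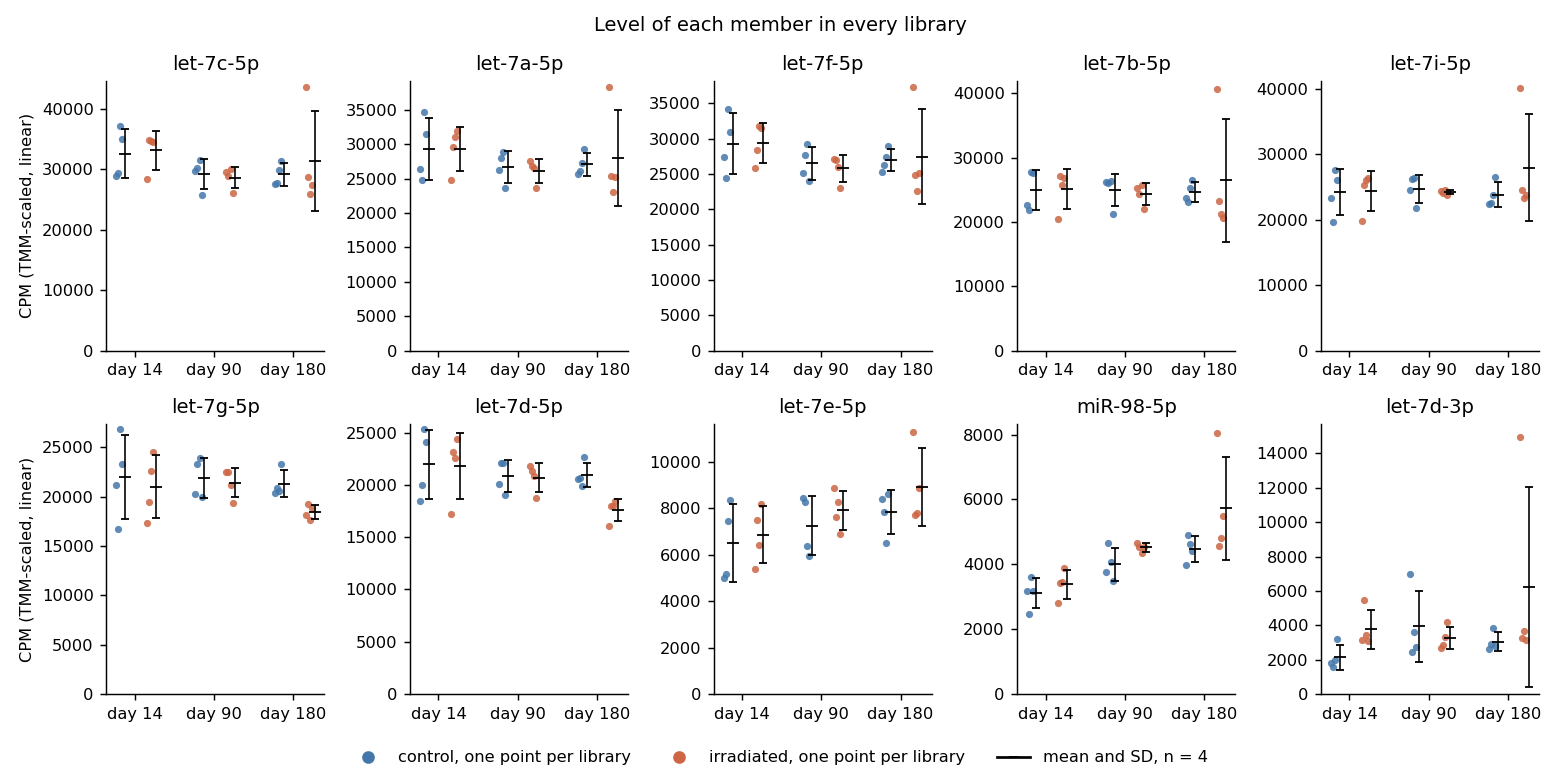
Level of each of the 10 members in every library, in TMM-scaled CPM on a linear axis from 0, by day and group; points are libraries, bars the mean and SD of 4. The control and irradiated points overlap at days 14 and 90 for every member, and irradiated library 1 at day 180 is the highest point of its panel for 8 of the 10, the exceptions being let-7d-5p and let-7g-5p.

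Thoracic irradiation was set against control within each day to ask whether the family responds early, at day 14, or late, at days 90 and 180. No member was called at any day: edgeR's quasi-likelihood test with Benjamini-Hochberg adjustment over all tested miRNAs called 0 of 10 at day 14 (0% of all 499 tested), 0 of 10 at day 90 (0.358% of 558) and 0 of 10 at day 180 (0% of 552). DESeq2 and limma-voom also called 0 members at each day, except that DESeq2 gave no adjusted p for let-7d-3p at day 180 (log2 fold change of 1.12). At an unadjusted p under 0.05 the edgeR test held 1 member at day 14 (let-7d-3p; 5.41% of all tested), 0 at day 90 (12.7%) and 1 at day 180 (let-7d-5p; 18.3%).

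At day 14 the 5p members lay close to their control levels. Their log2 fold changes ran from -0.07 (let-7g-5p) to 0.12 (miR-98-5p), with standard errors of 0.11 to 0.20, and the median over the 10 members was 0.01 beside 0.01 over all tested miRNAs. Let-7c-5p, for example, measured 28870, 29363, 37109 and 34911 CPM in control libraries 1 to 4 and 28350, 34832, 34728 and 34570 in irradiated libraries 1 to 4. The groups overlapped throughout, with a log2 fold change of 0.02 ± 0.11 (SE). None of the 10 members separated the groups, against 2.4% of all tested miRNAs.

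The 3p arm of let-7d was the member with the largest difference at day 14. Let-7d-3p measured 1777, 1545, 1986 and 3212 CPM in the control libraries and 3146, 5460, 3410 and 3084 in the irradiated ones. All irradiated libraries lay above control libraries 1 to 3, and control library 4 lay inside the irradiated range. The log2 fold change was 0.83 ± 0.27 (SE), or 1.77-fold, and was not past the threshold (edgeR, unadjusted p = 0.0142, adjusted p = 0.804). Under the alternative settings its log2 fold change stayed between 0.59 and 1.13 and its adjusted p between 0.235 and 0.992. Without control library 2, whose stratified epithelium markers were high, it was 0.71 (edgeR adjusted p = 0.876). Let-7d-5p, the other product of that hairpin, had a log2 fold change of -0.01 ± 0.14.
The less abundant 5p members also overlapped at day 14. Let-7e-5p measured 5014, 5156, 7447 and 8379 CPM in control and 5373, 7483, 6428 and 8193 in irradiated libraries, a spread that was wide in both groups. MiR-98-5p measured 3188, 2474, 3616 and 3174 CPM in control and 2795, 3413, 3440 and 3875 in irradiated libraries (edgeR adjusted p = 0.919).

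At day 90 irradiated and control lungs overlapped for all 10 members (7.17% of all tested miRNAs did not overlap). The 7 most abundant 5p members had log2 fold changes from -0.04 to -0.01, with standard errors of 0.08 to 0.09. Let-7i-5p measured 24587, 26216, 26364 and 21796 CPM in control and 24450, 24053, 24551 and 23785 in irradiated libraries, so that the irradiated libraries lay inside the control range. MiR-98-5p, which shares the seed but sits on the X chromosome beside let-7f-2, had the highest log2 fold change, 0.18 ± 0.12 (edgeR adjusted p = 0.626). Its levels were 3770, 4671, 4070 and 3476 CPM in control and 4671, 4533, 4348 and 4538 in irradiated libraries. Let-7d-3p was -0.27 ± 0.31, and its highest library of the day, at 6966 CPM, was control library 1. Without that library it was 0.14 (edgeR adjusted p = 0.863). The median was -0.03 over the members and -0.02 over all tested miRNAs.

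At day 180 the members' values turned on irradiated library 1. With it, 8 of 10 members had a log2 fold change above 0 (58.9% of all tested), with a median of 0.10 beside 0.13 over all tested miRNAs. Without it, 3 of 10 were above 0, and the median was -0.13 beside 0.00 over all tested. Let-7c-5p measured 27544, 27681, 29890 and 31423 CPM in control and 43544, 28663, 25858 and 27394 in irradiated libraries, with log2 fold changes of 0.11 ± 0.17 with that library and -0.10 without it. Let-7b-5p, made from the same host transcript as let-7c-2, changed in the same way, from 0.10 ± 0.21 to -0.19, and let-7a-5p from 0.05 ± 0.17 to -0.15. Let-7f-5p went from 0.02 ± 0.16 to -0.17 and let-7i-5p from 0.23 ± 0.19 to -0.01, while let-7e-5p and miR-98-5p kept a positive sign, from 0.19 ± 0.17 to 0.04 and from 0.35 ± 0.21 to 0.13. None of these values was past the threshold, and for let-7a-5p, let-7b-5p, let-7c-5p, let-7f-5p and let-7i-5p leaving out the 1 library reversed the sign. Other alternatives did so too for let-7a-5p, let-7b-5p and let-7f-5p, whose sign changed in 2, 2 and 5 of 17 in all.

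Let-7d-5p and let-7g-5p were the members that lay lower with or without that library. Let-7d-5p measured 20554, 20694, 19907 and 22651 CPM in control and 16041, 17959, 17946 and 18516 in irradiated libraries. Every irradiated library lay below every control library, with a log2 fold change of -0.25 ± 0.11 (edgeR, unadjusted p = 0.049992, adjusted p = 0.273), and -0.22 without library 1 (edgeR adjusted p = 0.127). Let-7g-5p, made alone from an intron of Wdr82, measured 20412, 20847, 20630 and 23330 CPM in control and 18171, 19251, 17637 and 18858 in irradiated libraries. Here too the groups did not overlap, at a log2 difference of -0.21 ± 0.11 (edgeR adjusted p = 0.357), and -0.21 without library 1 (edgeR adjusted p = 0.172).
These 2 of 10 members stand beside 12% of all tested miRNAs whose groups did not overlap. Those lower in the irradiated libraries were 6.52% of all tested. The separation rested on the scaling. Scaled by relative log expression or by the upper quartile, or by TMM factors computed without the members, let-7d-5p alone remained separate, and with no scaling beyond library size neither did. Without library 1, let-7a-5p, let-7d-5p, let-7f-5p and let-7g-5p all lay below the controls with no overlap, as did 10.6% of all 575 tested. These overlap settings were chosen after the data were seen.

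**Figure D2:**
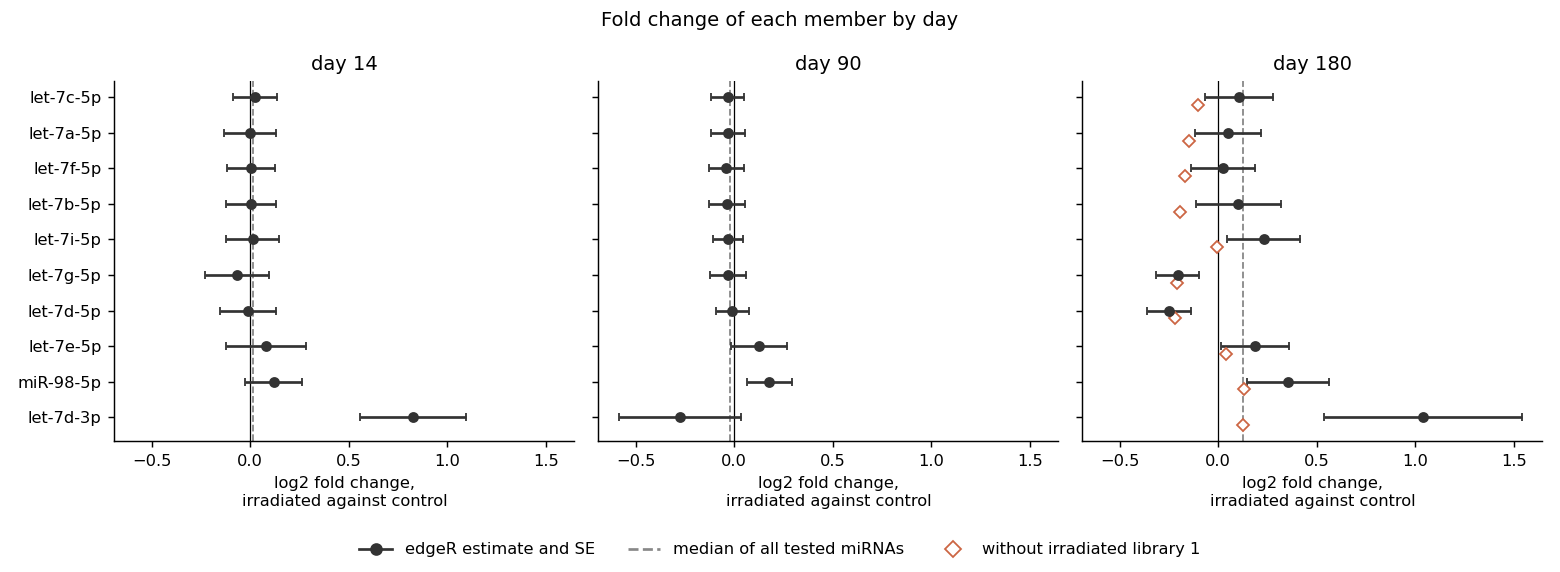
Log2 fold change of irradiated against control for each member at days 14, 90 and 180 (dots, with edgeR standard errors), the median over all tested miRNAs (dashed line) and, at day 180, the value without irradiated library 1 (open diamonds). No member passed the threshold at any day, and leaving out the 1 library takes let-7d-3p from 1.04 to 0.13 and let-7c-5p from 0.11 to -0.10.

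Whether the response differed between days was tested with an interaction over all 24 libraries, on the 624 miRNAs that passed the filter among those shared by the tables. EdgeR called 0 of 10 members, and 0% of all tested, for day 90 minus day 14, for day 180 minus day 14 and for day 180 minus day 90, where 4.49%, 11.4% and 14.6% of all tested had an unadjusted p under 0.05. DESeq2 and limma-voom also called 0 members. The one member with an unadjusted p under 0.05 in any of the 3 was let-7d-3p for day 180 minus day 90 (log2 difference of 1.31 ± 0.61, SE; edgeR unadjusted p = 0.0419, adjusted p = 0.327). That difference was 0.38 without irradiated library 1 of day 180 (edgeR adjusted p = 0.721) and 0.92 without control library 1 of day 90 (edgeR adjusted p = 0.600). Each pair of these comparisons shares the 8 libraries of a day, so the 3 are not independent.

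Shares within the family need no scaling between libraries, and they describe which 5p members gained or lost weight within their sum. In the day 14 controls let-7a-5p took 14.9%, 15.1%, 15.4% and 15.0% of the 5p sum. Other shares spread more between those libraries, as with let-7e-5p, from 2.84% to 3.99%, and let-7g-5p, from 10.2% to 12.0%. At days 14 and 90 no 5p member separated irradiated from control libraries by its share, against 1.2% and 6.81% of all tested miRNAs taken relative to the same sum. MiR-98-5p came nearest at day 90, with 2.04%, 2.38%, 2.05% and 2.11% in control and 2.44%, 2.42%, 2.32% and 2.70% in irradiated libraries, where only control library 2 lay inside the irradiated range.

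At day 180, 2 of the 9 shares did not overlap between the groups, against 8.7% of all tested miRNAs relative to the 5p sum. Let-7i-5p took 12.6%, 12.5%, 12.8% and 13.1% of the sum in control libraries and 15.8%, 13.9%, 14.2% and 13.6% in irradiated libraries. All irradiated libraries lay above all control libraries, and the means differed by 1.62 percentage points beside a pooled SD of 0.723. Let-7g-5p took 11.5%, 11.6%, 11.1% and 11.6% in control and 7.17%, 10.9%, 10.7% and 10.8% in irradiated libraries, all of them below the controls. Without library 1 the irradiated shares were 13.6% to 14.2% for let-7i-5p and 10.7% to 10.9% for let-7g-5p. Groups that do not overlap stay so when a library is left out, so this says nothing more about their separation. Of all tested miRNAs 22.6% did not overlap without library 1, against 8.7% with it. Let-7i-5p and let-7g-5p share the base changes G12U and U18C, and they went opposite ways within the sum.
The library that stood apart differed most in make-up. In it let-7d-5p took 6.33% of the sum against 10.2% to 11.6% in the other 7 libraries of the day, and let-7b-5p took 16.0% against 11.9% to 13.7%. MiR-98-5p took 2.24%, 2.73%, 2.50% and 2.18% in control and 3.17%, 2.59%, 2.93% and 3.15% in irradiated libraries, which overlap by 1 library on each side. All 9 together took 18.1%, 18.5%, 18.2% and 19.2% of all counts in control and 21.7%, 17.9%, 17.9% and 18.7% in irradiated libraries. The group difference of 0.57 percentage points became -0.31 without library 1. At day 14 the irradiated mean was 19.3% ± 1.70 and at day 90 18.5% ± 0.418 (SD, n = 4), each less than 1 SD from its controls.

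**Figure D3:**
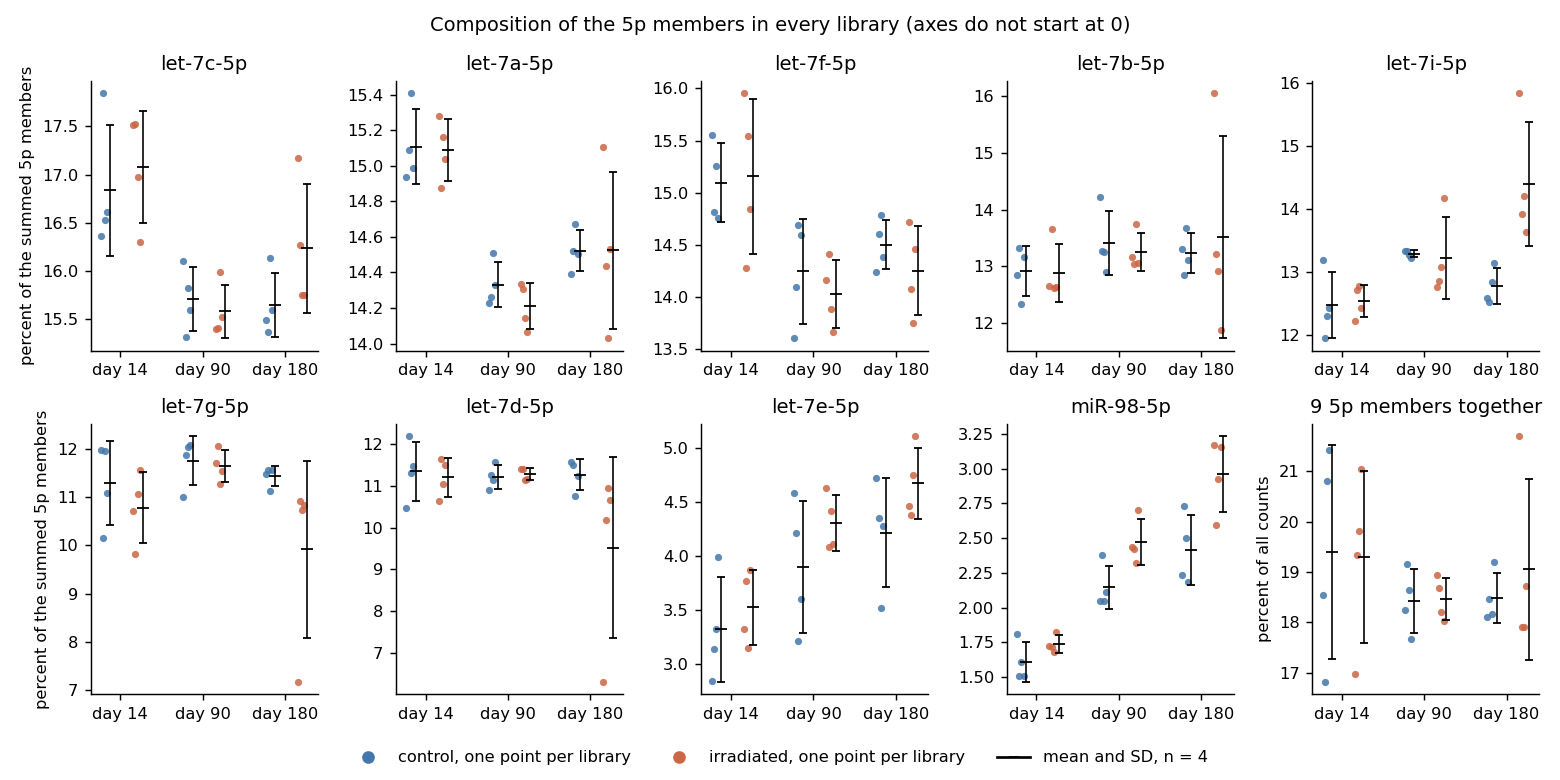
Share of each 5p member within the sum of the 9 (percent), and the share of the 9 in all counts (last panel), by day and group; points are libraries, bars the mean and SD of 4, and the axes do not start at 0. At day 180 the irradiated libraries lie above all controls for let-7i-5p (13.6% to 15.8% against 12.5% to 13.1%) and below all controls for let-7g-5p (7.17% to 10.9% against 11.1% to 11.6%).

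The arms of let-7d were compared within each library, since both come from 1 hairpin and their ratio needs no scaling. At day 14 the 3p arm made up 8.78%, 7.16%, 7.26% and 11.8% of both arms in control and 15.5%, 19.1%, 13.1% and 11.2% in irradiated libraries. The irradiated libraries were higher except that library 4 lay just below control library 4. The log2 ratio of 5p to 3p counts was 3.41 ± 0.368 in control and 2.56 ± 0.385 in irradiated libraries (SD, n = 4), a difference of -0.85 (exact two-sided permutation p = 0.0571, adjusted over the 3 days 0.129). With 4 against 4 libraries the smallest p that the 70 splits can give is 0.0286, which becomes 0.0857 after adjustment when 1 day alone reaches it. That test ignores the replicate numbers, which the counts, and not the labels, pair at day 14. Exact permutation within same-numbered pairs gave p = 0.25 for that day (adjusted over the 3 days 0.375). With 4 pairs this test cannot pass the threshold, so it does not decide whether the arms differed.
At day 90 the 3p share was 25.8%, 9.94%, 14.1% and 12.5% in control and 10.99%, 11.8%, 13.7% and 18.2% in irradiated libraries. The difference of the log2 ratio was 0.15 (exact permutation p = 0.743). At day 180 it was 11.3%, 12.2%, 16.2% and 11.03% in control and 48.3%, 15.3%, 16.9% and 14.5% in irradiated libraries. The log2 ratio differed by -0.94 (exact permutation p = 0.0857, adjusted 0.129), and by -0.36 without library 1 (exact permutation, adjusted p = 0.171), in which the arms were almost equal. None of the 3 days passed the threshold, which 1 day alone could not have passed in this design.
In CPM, let-7d-3p at day 180 measured 2621, 2887, 3849 and 2808 in control and 14976, 3240, 3649 and 3134 in irradiated libraries, at a log2 difference of 1.04 ± 0.50 (edgeR adjusted p = 0.311). Without library 1 it was 0.13. Over all miRNAs named by arm, 3p names took 33.7% of the counts in control and 34.0% in irradiated libraries of day 14 by mean. Those means were 34.1% and 34.5% for day 90, and 33.8% and 33.4% for day 180.

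**Figure D4:**
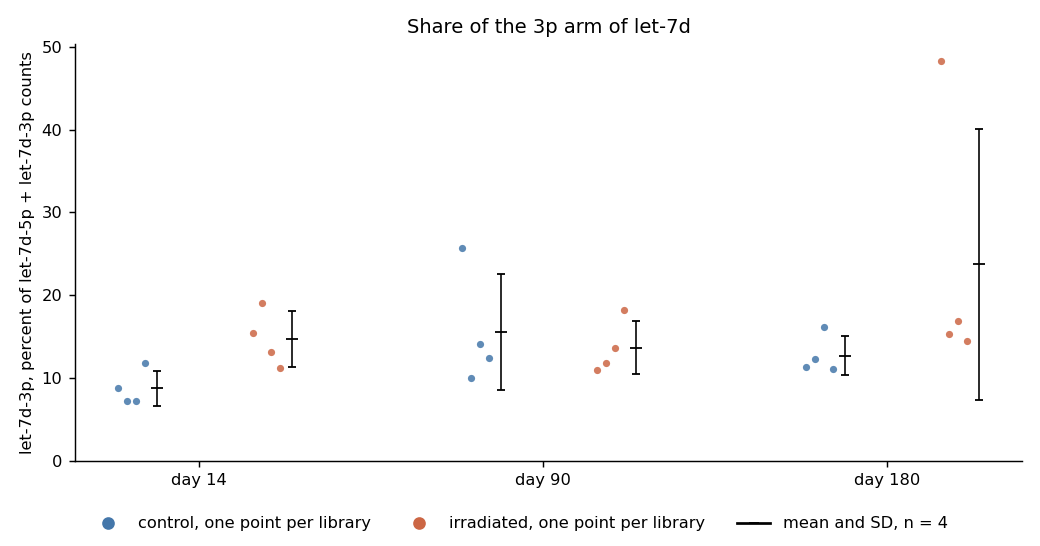
Share of let-7d-3p in the counts of both let-7d arms (percent, axis from 0), by day and group; points are libraries, bars the mean and SD of 4. Irradiated library 1 at day 180 reaches 48.3% and control library 1 at day 90 25.8%, and the other 22 libraries lie between 7.16% and 19.1%.

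The remaining products of the let-7 and miR-98 hairpins were rare beside the members. Of the 13 in the list, 9, 9 and 8 passed the filter on low counts at days 14, 90 and 180, and edgeR called 0 of them in each irradiated against control comparison (0%, 0.358% and 0% of all tested). At an unadjusted p under 0.05 there were 1, 0 and 0, beside 5.41%, 12.7% and 18.3% of all tested. Let-7i-3p varied most, with 34.0, 8.59, 327 and 6.46 CPM in control and 883, 8.18, 388 and 8.70 in irradiated libraries of day 14. Both groups held libraries near 8 CPM and libraries above 300 CPM, and its log2 fold changes of 1.78 ± 1.65, 0.82 ± 0.53 and 0.76 ± 0.55 at the 3 days were not past the threshold. Let-7e-3p measured 135 to 204 CPM in control and 148 to 230 in irradiated libraries of day 14, and its highest values were 361 in control library 1 of day 90 and 384 in irradiated library 1 of day 180, the same libraries in which let-7d-3p was highest. Let-7k, which shares the seed, had a mean of 65.8 CPM in control and 50.2 in irradiated libraries of day 14. Let-7a-1-3p and let-7c-2-3p have the same mature sequence and cannot be told apart:
let-7a-1-3p and let-7c-2-3p: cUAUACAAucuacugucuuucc
The tables treated them differently. At days 14 and 90 both names carried the same count in every library, whereas at day 180 nearly all counts of a library stood under 1 of the names, with 422 against 4 in control library 1, for instance, and 2 against 516 in control library 2. As 1 sequence they measured 109 CPM in control and 117 in irradiated libraries of day 14 by mean, 129 and 123 at day 90, and 126 and 135 at day 180.

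Of the 5 miRNAs that share primary transcripts with let-7 members, edgeR called 0 in each irradiated against control comparison, and 0 had an unadjusted p under 0.05. With 5 tested and the shares of all miRNAs just given, such counts are near the background. MiR-99a-5p, the neighbour of let-7c-1, had log2 fold changes of -0.02 ± 0.09, -0.04 ± 0.08 and 0.13 ± 0.21 at days 14, 90 and 180, beside 0.02, -0.03 and 0.11 for let-7c-5p. In irradiated library 1 of day 180 it measured 42386 CPM against 21689 to 28676 in the other 7, as let-7c-5p measured 43544 against 25858 to 31423. The hairpins miR-100 and miR-125b-1 are neighbours of let-7a-2, and counts of a mature miRNA were not assigned to a hairpin. MiR-100-5p and miR-125b-5p had values of -0.21 ± 0.09 and -0.23 ± 0.31 at the earliest day. For day 90 they were -0.05 ± 0.09 and -0.12 ± 0.23. For day 180 they differed in sign, with 0.42 ± 0.36 for miR-100-5p and -0.40 ± 0.39 for miR-125b-5p. MiR-99b-5p and miR-125a-5p, the neighbours of let-7e, stayed between -0.12 and 0.15 at the 3 days.

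The control libraries of the 3 days were set side by side on 1 scale. Day, age of the mice and table cannot be told apart in them, nor could sequencing run if it went with the day. The day 180 table handled names with one shared sequence in its own way, as the let-7a-1-3p counts show. Let-7c-5p was the 1 member called: it fell by 0.40 on the log2 scale from day 14 to day 90 (SE 0.10, edgeR adjusted p = 0.0486) and by 0.37 from day 14 to day 180 (SE 0.10, edgeR adjusted p = 0.0365). Of all tested miRNAs 3.55% and 8.69% were called, 2.48% and 6.21% as lower. Scaled over the 12 controls it measured 30936, 32307, 41385 and 39643 CPM in the day 14 libraries. The day 90 libraries held 27642, 28423, 28431 and 24961 CPM and the day 180 libraries 26554, 26439, 28404 and 30019 CPM, so that both later groups lay wholly below day 14. Groups that did not overlap were seen for 13.1% of all tested miRNAs at day 90 (7.45% lower) and for 19.7% at day 180 (11.7% lower). DESeq2 called it too (adjusted p = 0.0306 and 0.0354).
The call was near the threshold. It was lost for day 90 under relative log expression, upper-quartile scaling, no filter and limma-voom, and for day 180 under upper-quartile scaling and no filter, with edgeR adjusted p up to 0.215 and 0.199 (both under upper-quartile scaling). The size of the difference changed less: over the alternatives it stayed between -0.46 and -0.32 for day 90 and between -0.43 and -0.28 for day 180. No alternative here left out scaling between libraries. The day 14 controls had TMM factors of 0.83 to 0.98, and the later controls 0.997 to 1.10. Unscaled, let-7c-5p took 3.00% to 3.56% of all counts in the former and 2.75% to 2.99% in the latter, still without overlap. Its mean shares, in order of day, were 3.26%, 2.89% and 2.89%, so part of the log2 difference came with the scaling. Leaving out 1 control library at a time, 0 members were called in 10 of 12 fits for day 90 and in 9 of 12 for day 180; the edgeR adjusted p of let-7c-5p then ran up to 0.118 and 0.128. Without day 14 library 2, whose stratified epithelium markers were high, it was 0.0656 and 0.0513. Without day 14 library 1, 3 members were called for day 90 and 2 for day 180. No member was called between days 180 and 90 (0% of all tested), and 0 members had an unadjusted p under 0.05 by edgeR (17.6% of all tested). DESeq2 and limma-voom called 0 members there too.

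The other abundant 5p members had control log2 differences of the same sign under this scaling. From day 14 to day 90 let-7a-5p was at -0.38 ± 0.11, let-7f-5p at -0.39 ± 0.11 and let-7d-5p at -0.32 ± 0.11 (edgeR adjusted p = 0.0747, 0.0665 and 0.116). MiR-98-5p went the other way, at 0.12 ± 0.13 and, to day 180, 0.31 ± 0.13 (edgeR adjusted p = 0.611 and 0.157). Over the 10 members the median was -0.25 for both, beside -0.01 and 0.02 over all tested. Unscaled mean shares of all counts moved less from day 14 to day 90. Let-7i-5p went from 2.42% to 2.45%, let-7b-5p from 2.50% to 2.47% and let-7g-5p from 2.20% to 2.17%. Let-7a-5p went from 2.93% to 2.64%, let-7f-5p from 2.93% to 2.62% and let-7d-5p from 2.20% to 2.06%. At an unadjusted p under 0.05 edgeR held 5 of 10 members for day 90 and 6 of 10 for day 180, against 22.5% and 25.9% of all tested. Of the 5 miRNAs that share primary transcripts with members, 1 was called in each comparison and 3 lay above 0. The one called was miR-99a-5p, which shares the transcript of let-7c-1 and was lower (-0.33 and -0.37, edgeR adjusted p = 0.0486 and 0.0193). Of the marker lists, 2 of 5 epithelial and 1 of 2 endothelial miRNAs were called lower in both comparisons, beside 2.48% and 6.21% of all tested. For day 180 against day 14, 2 of 5 epithelial and 1 of 2 endothelial miRNAs lay above 0. The other lists held no called miRNA. Of the leukocyte miRNAs, 4 of 4 lay above 0 for day 90 and 3 of 4 for day 180. The endothelial sum ran from 47732 to 60421 CPM at day 14, from 36532 to 38971 at day 90 and from 39751 to 44109 at day 180, and the epithelial sum from 44199 to 47630, from 33593 to 41908 and from 38498 to 41338. Their part in the let-7c-5p result was not tested.

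Within the 5p sum, where scaling has no part, the day 14 controls also stood apart. Let-7c-5p took 16.4%, 17.8%, 16.5% and 16.6% of the sum in the day 14 libraries, against 16.1%, 15.3%, 15.8% and 15.6% for day 90 and 15.5%, 15.4%, 16.1% and 15.6% for day 180, with no overlap between day 14 and the later days. Let-7a-5p was likewise lower at both later days, with 14.9% to 15.4% in the day 14 libraries, 14.2% to 14.5% for day 90 and 14.4% to 14.7% for day 180. MiR-98-5p was higher: it took 1.50% to 1.81% in the day 14 libraries, against 2.04% to 2.38% for day 90 and 2.18% to 2.73% for day 180. In all, 5 of 9 shares did not overlap between days 90 and 14 (16% of all tested relative to the same sum), 3 between days 180 and 14 (19%) and 1, let-7i-5p, between days 180 and 90 (12.2%). In the irradiated libraries the share of miR-98-5p was also lowest at day 14, at 1.68% to 1.83%, against 2.32% to 2.70% at day 90 and 2.59% to 3.17% at day 180.

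**Figure D5:**
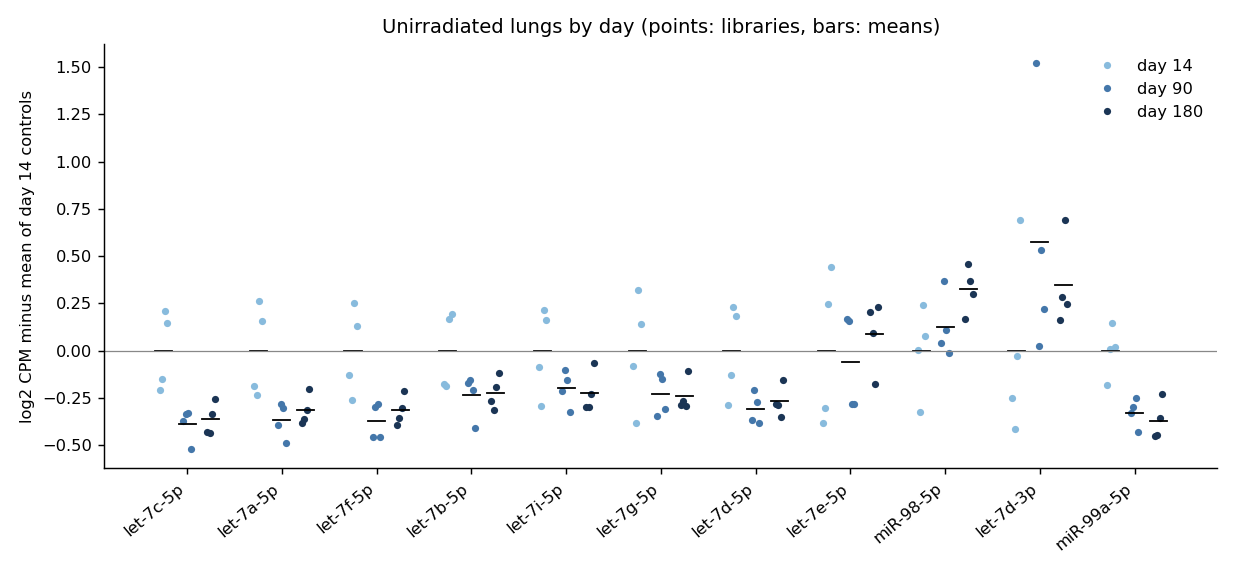
Log2 CPM of the members and of miR-99a-5p in the 12 control libraries, scaled together and set against the mean of the day 14 controls; points are libraries, short bars group means. Let-7c-5p lies 0.25 to 0.52 below that mean in every later library, and miR-98-5p has its highest mean at day 180.

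Across the 24 libraries, the miRNAs whose levels lay nearest to the summed 5p members, by the root mean square of the difference of log2 CPM taken against the controls of each day, were miR-26a-5p (0.0731), miR-126a-3p (0.0789), miR-22-3p (0.0937), miR-99a-5p (0.106) and miR-10a-5p (0.108), of 470 compared, whose median was 0.498. All of the named miRNAs are among the 10 most abundant outside the family. The measure is also small for any miRNA whose level varies little between libraries, so it does not single out shared behaviour. These are descriptions of libraries that share their scaling and, within a day, their controls.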

How the data were processed

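Small RNA libraries from mouse lung (18 to 30 bases, cut from a gel) were sequenced in 6 groups of 4. The authors deposited 1 table per day that gives each miRNA's read count and RPM value (reads scaled to a fixed library total) in every library. Per the submitters' processing notes, Bowtie2 and GRCm38.p6 were used; the version, the miRNA annotation, the mismatches allowed and the handling of reads that match several members are not given in the sources used here. The RPM values, as deposited, were divided by totals of 11984009 to 16081430 reads, 3.72 to 4.65 times the sum of the table, and were used only to find those totals.

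Counts were analysed with edgeR 4.0.16 (R 4.3.3): filterByExpr, TMM factors, the quasi-likelihood test and Benjamini-Hochberg adjustment over all tested miRNAs at 0.05, each day alone. Interactions and control comparisons used miRNAs shared by the 3 tables. The let-7d arm ratio was tested by exact permutation of libraries and, as an alternative, within same-numbered pairs. Shares of the 5p sum were taken from raw counts. Values per library are CPM as defined above, and "not overlapping" means that every library of a group lay on one side of every library of the other. Counts carry no molecular identifiers. The steps were tested on simulated counts.

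The members, lists and tests were chosen with earlier results of these data known. All members are named; of other arms the 4 highest by mean, of transcript neighbours all, and of similar miRNAs the 5 nearest. Alternatives were relative log expression, upper-quartile scaling, no filter, a mean of at least 10 CPM, DESeq2 1.42.0, limma-voom (limma 3.58.1), TMM without the members, leaving out each library, a replicate block and 1 fit of all 24 libraries. The same replicate numbers occur in both groups of a day. The deviations of same-numbered libraries from their group means correlated at 0.403, 0.162, 0.463 and 0.412 for numbers 1 to 4 at day 14, where the numbers are therefore taken as pairs from the data; at the other days some correlations were below 0.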

Additional observations from a re-analysis of the deposited data

Results flagged for a closer look

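In 15 of 126 groups of 4 values (CPM, shares of the 5p sum and the let-7d arm ratio), the lowest or highest library lay apart from the other 3 by more than Dixon's 95% limit; chance gives about 1 in 20, or 6.3.

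Irradiated library 1 at day 180 gave 8 of them. It was highest for let-7a-5p (38297 CPM), let-7b-5p (40689 CPM), let-7c-5p (43544 CPM), let-7i-5p (40140 CPM) and let-7d-3p (14976 CPM). It was lowest in the share of let-7d-5p (6.33%) and let-7g-5p (7.17%) in the 5p sum and in the log2 ratio of let-7d-5p to let-7d-3p (0.10). That library also had the lowest total and the highest summed epithelial markers, at 68709 CPM; their part in these values was not tested.

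The other 7 were spread over 5 libraries. At day 14, irradiated library 1 was lowest for let-7c-5p (28350 CPM) and let-7i-5p (19790 CPM), and irradiated library 2 was highest for let-7d-3p (5460 CPM) and for the share of let-7b-5p (13.7%). Control library 2 of that day, whose stratified epithelium markers were high, had the highest share of let-7c-5p (17.8%). Control library 4 was lowest for let-7b-5p at day 90 (21253 CPM) and highest for let-7g-5p at day 180 (23330 CPM).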

How the results depend on the processing

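In the irradiated against control comparisons and in the interactions 0 members were called under the alternatives run, the replicate block included; DESeq2 gave no adjusted p for let-7d-3p at day 180, so it tested 9 of 10 there. The lowest adjusted p of a member was 0.235 at day 14, 0.489 at day 90 and 0.127 at day 180. Under the replicate block, which the data pair at day 14 only, let-7d-3p at day 14 was 0.84 (edgeR adjusted p = 0.698). The let-7d arm difference ranged from -1.02 to -0.69 at day 14, from -0.18 to 0.37 at day 90 and from -1.18 to -0.36 at day 180. Of the members' fold changes under alternatives, 161 of 2040 changed sign, none of them past the threshold. At day 180, members that did not overlap numbered 2, against 1, 1, 0 and 1 under relative log expression, upper-quartile scaling, no scaling and TMM without the members, and 4 without irradiated library 1. The median of all tested there moved from 0.13 to 0.15, 0.09 and 0.19 under relative log expression, upper-quartile scaling and TMM without the members.

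For the controls of day 90 against day 14, where 1 member was called, 0 were called under relative log expression, upper-quartile scaling, no filter and limma-voom, 2 with a mean of at least 10 CPM (let-7c-5p and let-7f-5p), and 0 to 3 when 1 library was left out. For day 180 against day 14, 0 were called under upper-quartile scaling and with no filter, and 0 to 2 when 1 library was left out. The cause was not tested.

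Counts over all tested miRNAs moved more. At day 14 edgeR called 0, against 7 with no filter, 1 by DESeq2 and 1 in the fit of all 24 libraries. At day 90 it called 2, against 5 with upper-quartile scaling, 18 with no filter, 18 by DESeq2, 3 by limma-voom, and 0 with a mean of at least 10 CPM, the block or all 24 libraries. At day 180 it called 0, against 18 with no filter, 29 by DESeq2 and 32 with all 24 libraries. DESeq2 called 1, 3 and 3 interactions. Between controls, 20 calls for day 90 became 8 with upper-quartile scaling, 13 with no filter and 49 by DESeq2, and 49 for day 180 became 20 with upper-quartile scaling and 83 by DESeq2. Between days 180 and 90, 0 became 3 with upper-quartile scaling, 32 by DESeq2 and 7 by limma-voom.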

Other observations

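Control library 1 of day 90 held the highest level of several let-7 3p products among the 8 libraries of its day: 6966 CPM of let-7d-3p against 2443 to 4169 in the other 7, 361 CPM of let-7e-3p against 164 to 239, and 216 CPM of the sequence shared by let-7a-1-3p and let-7c-2-3p against 87.99 to 136. Its 5p members lay inside the range of the day, as with let-7d-5p at 20073 CPM. By share of both let-7i arms, let-7i-3p was not high in that library, at 1.02%. The day's controls ran from 0.222% to 2.70% and its irradiated libraries from 1.57% to 2.51%.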
